A study of Homo sapiens with 11 samples.

Results

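The genes described here are dual-specificity phosphatases, enzymes of the DUSP family that remove phosphate from tyrosine as well as from serine or threonine. The list names 10 genes (DUSP1, DUSP3, DUSP4, DUSP5, DUSP6, DUSP7, DUSP10, DUSP11, DUSP14 and DUSP22), which were taken by symbol from a table of 33080 genes. A row was found for 9 of them, and DUSP14 was not analysed here. The table holds 23 genes whose symbol is DUSP and a number, so 14 others of that name lie outside the list. The list was selected on measured values: it was drawn up around DUSP3 for its higher level in the libraries of both siRNAs than in the controls. The difference of DUSP3 from the control is therefore a description of how it was chosen, and no test is given for it.

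The 11 libraries are bulk RNA-seq of 769-P, an established cell line from a human clear-cell renal carcinoma. In 3 libraries the cells had received a first siRNA against the aldehyde reductase AKR1A1 (si1), in 4 a second one (si2) and in 4 a control siRNA (siSCR). The cells of all groups had been transfected for 48 h with the lipid reagent RNAiMAX, at an siRNA concentration labelled as 20 µM. The labels give the genotype AKR1A1-/- for si1 and si2 and wild-type for siSCR, although the agent was an siRNA and AKR1A1 transcripts were still counted. Nothing in the labels says that the replicates came from different cultures. The p-values therefore reflect the variation among the sequenced samples alone, which may be technical.

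MAP kinases are switched on by phosphorylation of a threonine and a tyrosine, and dual-specificity phosphatases switch them off by removing both. The MAP kinase phosphatases proper carry a kinase-docking domain and differ in where they act and in their preference for ERK, JNK or p38. Several of them are themselves induced by the kinases they inactivate, and so form negative feedback loops. The atypical members lack the docking domain. DUSP3, also known as VHR, is a small atypical phosphatase that acts on ERK and JNK and has further substrates outside the MAP kinases.

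Library totals ran from 2108546 to 5939514 reads on genes, and AKR1A1 stood at 23.6 to 81.7 normalized counts in si1 and 32.1 to 56.6 in si2, against 200.1 to 390.4 in siSCR. The mean was 50.1 ± 29.4 in si1 (SD, n = 3) and 45.8 ± 10.2 in si2 (SD, n = 4), against 272 ± 82.3 in siSCR (SD, n = 4). Of 8 markers of the renal line, 7 had a median of at least 10 normalized counts, among them the renal lineage factors PAX8 and PAX2, while the hypoxia target CA9 was at 0 in every library. All 4 endothelial markers were at 0 everywhere, and the leukocyte antigens PTPRC and CD3E did not exceed 1.77 normalized counts. Of the 4 leukocyte markers 1 (CD68), and of the 5 fibroblast markers 1 (COL1A1), had a median of at least 10. A pair of libraries stood apart from their groups. In siSCR 1, mitochondrial transcripts took 12.1% of reads, against a range of 3.46% to 4.46% among the remaining controls. The share was also high in si1 1, at 11.1% against 6.57% and 7.82% in the other si1 libraries, and was 4.59% to 5.12% in si2. Results given without siSCR 1 keep si1 1. In si1 2, 11618 genes had a read, against 13163 and 14125 in the other si1 libraries. For the genes named, a call that changed without siSCR 1 or without si1 2 is given with and without that library. A normalized count is a read count divided by the size factor of its library, and differences are on the log2(normalized count + 1) scale, which understates the change of low genes.

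The promoters of DUSP3 and DUSP1 are shown because the results turn on these genes, one for its level in both siRNA groups and the other for its difference between the siRNAs. Each is the 250 bases before the RefSeq transcription start on GRCh38.p14, read 5′ to 3′ on the minus strand. The DUSP3 window is chr17:43778978-43779227 and the DUSP1 window is chr5:172771196-172771445. Capitals mark matches on either strand to the GC box GGGCGG, to the cyclic AMP response element TGACGTCA and to the E-box CACGTG. The motifs TGANTCA (AP-1), CCGGAAG (an ETS core) and CCAAT were also searched.
DUSP3 promoter: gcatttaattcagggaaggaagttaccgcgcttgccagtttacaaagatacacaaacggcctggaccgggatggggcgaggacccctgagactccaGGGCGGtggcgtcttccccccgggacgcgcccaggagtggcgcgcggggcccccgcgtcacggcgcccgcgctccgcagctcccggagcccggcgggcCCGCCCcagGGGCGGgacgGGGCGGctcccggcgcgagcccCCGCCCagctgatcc
DUSP1 promoter: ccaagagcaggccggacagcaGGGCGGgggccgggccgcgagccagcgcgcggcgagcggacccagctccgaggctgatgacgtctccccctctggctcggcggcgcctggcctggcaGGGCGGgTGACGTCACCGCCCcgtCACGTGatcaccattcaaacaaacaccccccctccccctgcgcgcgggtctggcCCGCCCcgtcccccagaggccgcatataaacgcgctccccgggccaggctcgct
The DUSP3 window held 5 GC boxes and none of the other motifs. The DUSP1 window held 4 GC boxes, 1 cyclic AMP response element that directly abuts a GC box, and 1 E-box, with no motifs overlapping. Among 35116 RefSeq windows of the same length, 42.6% held a GC box, 1.65% the cyclic AMP response element and 6.34% the E-box. The corresponding shares were 6.57% for AP-1, 8.52% for the ETS core and 32.0% for CCAAT. A match is a description of the letters and not evidence of a bound factor.

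DUSP3 (ENSG00000108861) lies on chromosome 17 of GRCh38, from 43766121 to 43778988 on the minus strand, and no base of its exons is shared with another annotated gene. Its normalized counts were 848, 727 and 621 in the si1 libraries and 638, 591, 415 and 517 in the si2 libraries, against 369, 209, 181 and 236 in the siSCR libraries. Every library of either siRNA stood above every control library, and si1 and si2 overlapped. The mean was 732 ± 114 in si1 (SD, n = 3) and 540 ± 97.2 in si2 (SD, n = 4), against 249 ± 83.1 in siSCR (SD, n = 4), which makes the mean 2.94 times and 2.17 times that of the control. In bulk libraries, more transcript per cell and more cells that express a gene cannot be told apart. The log2 difference was 1.60 (SE 0.27) for si1 and 1.15 (SE 0.24) for si2, and both use the same 4 controls. In the authors' deposited table the log2 fold change of DUSP3 was 1.43 for si1 and 0.98 for si2. The highest control value came from siSCR 1, and without that library the differences were 1.80 for si1 and 1.36 for si2. Leaving out any 1 library gave 1.46 to 1.80 for si1 and 1.02 to 1.36 for si2.

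The order of the DUSP3 level was thus si1, si2 and siSCR. The rule did not use the difference between the siRNAs, which was -0.45 for si2 minus si1 (SE 0.21, 95% interval -0.94 to 0.04). It did not pass the test over all 10448 genes (limma adjusted p = 0.235). The neighbours si1 and si2 therefore did not differ beyond their spread, and a value lower in si2 by up to 0.94 lies within the interval.

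**Figure D1:**
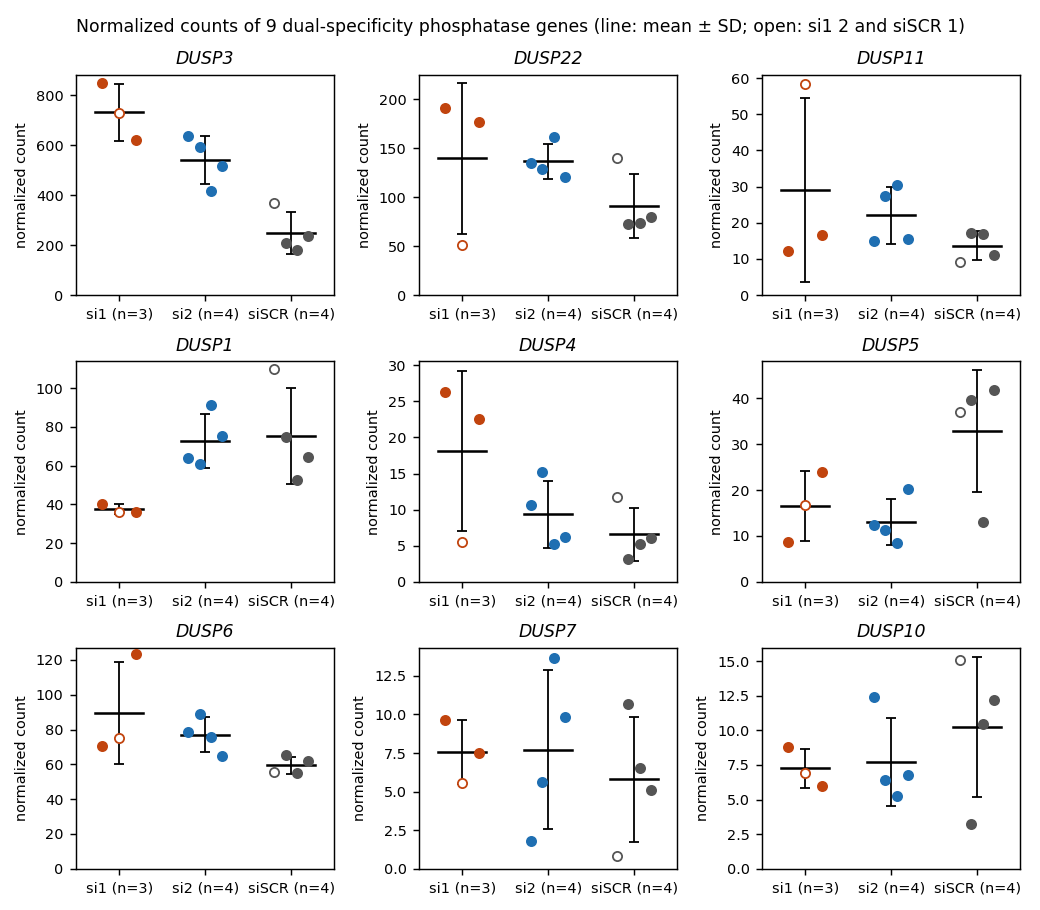
Normalized counts of the 9 genes in each library, with a black line and bar for the group mean ± SD (si1 n = 3, si2 n = 4, siSCR n = 4); open points are si1 2 and siSCR 1, and each panel has its own axis from 0. All si1 and si2 points of DUSP3 lie above 369, the highest control value, and all si1 points of DUSP1 lie below the other libraries.

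DUSP22 and DUSP11 are the other atypical members measured. DUSP22, a phosphatase that acts on the JNK pathway, lies on chromosome 6 from 291630 to 351355. It stood at 191, 51.3 and 177 normalized counts in si1 and at 135, 129, 162 and 121 in si2, against 140, 72.6, 73.3 and 79.4 in siSCR. The si1 2 library was the lowest of all 11, and siSCR 1 stood apart from the other controls and inside the si2 range. Its mean was 140.03 ± 77.1 in si1 (SD, n = 3) and 137 ± 17.7 in si2 (SD, n = 4), against 91.4 ± 32.7 in siSCR (SD, n = 4). The difference was 0.45 for si1 (SE 0.48; limma adjusted p = 0.586) and 0.63 for si2 (SE 0.23; limma adjusted p = 0.17), and neither passed the test.

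The DUSP22 calls rested on these libraries. Without siSCR 1 the difference for si2 was 0.85 (SE 0.15; limma adjusted p = 0.00819), with all 4 si2 libraries above the 3 remaining controls. For si1 it was 0.68 without siSCR 1 (limma adjusted p = 0.385), 1.06 without si1 2 (limma adjusted p = 0.138) and 1.28 without both (SE 0.16; limma adjusted p = 0.0118). Leaving out both was chosen after the values were seen.

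DUSP11, a phosphatase of RNA 5′ ends rather than of MAP kinases, lies on chromosome 2 from 73762184 to 73780157 and rested on 11 to 42 reads a library. Its normalized counts were 12.3, 58.3 and 16.5 in si1 and 15.0, 27.3, 30.5 and 15.5 in si2, against 9.23, 17.1, 17.0 and 11.2 in siSCR. One si1 library, si1 2, was the highest of all and the other si1 libraries lay within the control range. The difference was 0.76 for si1 (SE 0.51; limma adjusted p = 0.385) and 0.63 for si2 (SE 0.28; limma adjusted p = 0.255). Without si1 2 the si1 difference was 0.10 (limma adjusted p = 0.865).

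DUSP1, DUSP4 and DUSP5 are nuclear phosphatases of the inducible kind. DUSP1, which growth factors and stress induce and which acts on p38, JNK and ERK, lies on chromosome 5 from 172768090 to 172771195. Its normalized counts were 40.4, 36.1 and 36.1 in si1 and 63.7, 61.0, 91.4 and 75.2 in si2, against 110 in siSCR 1 and 74.8, 52.3 and 64.2 in the other controls. The si1 libraries were close to each other and below every other library, while si2 and siSCR overlapped fully. Its mean was 72.8 ± 13.8 in si2 (SD, n = 4), against 37.5 ± 2.49 in si1 (SD, n = 3), and 75.3 ± 24.9 in siSCR (SD, n = 4).

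DUSP1 was higher in si2 than in si1, a contrast the choice of genes did not use, by 0.92 on the log2 scale (SE 0.20, 95% interval 0.47 to 1.37; limma adjusted p = 0.0322). All 4 si2 libraries lay above all 3 si1 libraries, which held for 13.4% of the 10448 genes tested in this direction. The call is close to the threshold: leaving out any 1 of the 7 libraries gave an adjusted p of 0.0503 to 0.103, with differences of 0.81 to 1.00, and dropping the filter on low values gave 0.0841. For si1 minus siSCR the difference was -0.93 (SE 0.26; limma adjusted p = 0.100), and with all 11 libraries in 1 fit its adjusted p was 0.0356. For si2 minus siSCR it was -0.01 (95% interval -0.55 to 0.52; limma adjusted p = 0.983).

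DUSP5, a nuclear phosphatase specific for ERK, lies on chromosome 10 from 110497838 to 110511544. Its normalized counts were 8.78, 16.7 and 24.0 in si1 and 12.4, 11.2, 8.40 and 20.2 in si2, against 36.9, 39.5, 13.1 and 41.8 in siSCR. Of the controls, 3 lay above all siRNA libraries and siSCR 3 lay among them. The difference was -0.93 for si1 (SE 0.47; limma adjusted p = 0.265) and -1.21 for si2 (SE 0.37; limma adjusted p = 0.115), and neither passed the test. Without siSCR 3 the difference for si2 was -1.59 (limma adjusted p = 0.029). The si2 and si1 libraries differed by -0.28 (95% interval -1.13 to 0.58; limma adjusted p = 0.678).

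DUSP4, a nuclear phosphatase that acts on ERK and JNK and lies on chromosome 8, was low, with 3 to 30 reads a library. It had 26.3, 5.55 and 22.5 normalized counts in si1 and 5.25 to 15.2 in si2, against 3.20 to 11.8 in siSCR. The si1 libraries other than si1 2 were the highest of all. The difference for si1 was 1.21 (SE 0.56, limma adjusted p = 0.234), and without si1 2 it was 1.86 (limma adjusted p = 0.0978). Without both si1 2 and siSCR 1 it was 2.15 (SE 0.27). That fit was chosen after the values were seen, and only si1 libraries then reached 10 normalized counts, so no p-value is given for it. For si2 against siSCR too few libraries reached 10 normalized counts, and the gene was not tested. For si2 minus si1 the difference was -0.75 (SE 0.54; limma adjusted p = 0.418), and without si1 2 it was -1.40 (limma adjusted p = 0.0633).

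DUSP6 and DUSP7 are cytoplasmic phosphatases of ERK, and DUSP6 is a common readout of ERK activity. DUSP6 lies on chromosome 12 from 89347232 to 89353271. It stood at 70.3, 74.9 and 123 normalized counts in si1 and at 78.7, 89.1, 75.6 and 64.8 in si2, against 55.4, 65.2, 54.9 and 62.1 in siSCR. All si1 libraries lay above the controls, and si2 4 lay within the control range. The difference was 0.54 for si1 (SE 0.23; limma adjusted p = 0.212), 0.36 for si2 (SE 0.16; limma adjusted p = 0.235) and -0.18 for si2 minus si1 (95% interval -0.73 to 0.37; limma adjusted p = 0.683). Of its exonic bases, 40.5% are shared with the antisense gene AC024909.2, and without knowledge of strand the reads of both cannot be told apart.

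DUSP7 had 1 to 19 reads a library and 0.840 to 13.7 normalized counts over all libraries, passed the minimum in no comparison and was not tested. DUSP10, which acts on JNK and p38, had 3 to 18 reads a library. Its normalized counts were 6.01 to 8.78 in si1 and 5.25 to 12.4 in si2, against 3.20 to 15.1 in siSCR. The siRNA libraries lay inside the control range. The difference was -0.30 for si1 and -0.27 for si2 (limma adjusted p = 0.768). For si1 DUSP10 passed the minimum through control libraries alone, so no p-value is given for that comparison. Without siSCR 2, the lowest control, the difference was -0.72 for si1 and -0.69 for si2 (limma adjusted p = 0.277). Without siSCR 1, the highest control, it was -0.048 for si2 (limma adjusted p = 0.957).

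DUSP3, which chose the list, is left out of its counts against siSCR. Of the other 8 genes, 7 were tested for si1 and 6 for si2, and limma called 0 at an adjusted p under 0.05 in either comparison. For si1 the 7 include DUSP10, which passed the minimum through control libraries alone. Among all genes 1.72% were called for si1 (181 of 10517) and 3.12% for si2 (320 of 10249). At an unadjusted p under 0.05 there were 1 of the 7 for si1 and 4 of the 6 for si2, and voom on the recovered reads called 0 in both. Over all genes tested, 2516 of 10517 for si1 and 2008 of 10249 for si2 had an unadjusted p under 0.05. As the list was chosen with these comparisons known, nothing is read from these counts. Of the 8, all si1 libraries lay above all controls for DUSP6 (10.8% of genes tested) and below them for DUSP1 (10.9%). With si2 none of the 8 lay wholly above the controls (7.09% of genes tested) or wholly below them. For si2 against si1, 7 of 9 were tested and 1, DUSP1, was called, against 6.74% of all genes (704 of 10448). For si2 against siSCR, 1 was called without siSCR 1 (DUSP22, higher) and 1 without siSCR 3 (DUSP5, lower). The median difference over the 9 genes was 0.54 for si1 and 0.39 for si2, beside -0.03 and -0.01 over all genes tested. Unlike the counts, these medians include DUSP3 and genes under the minimum, and the si2 median is the value of the untested DUSP7. Nothing is read from them either.

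**Figure D2:**
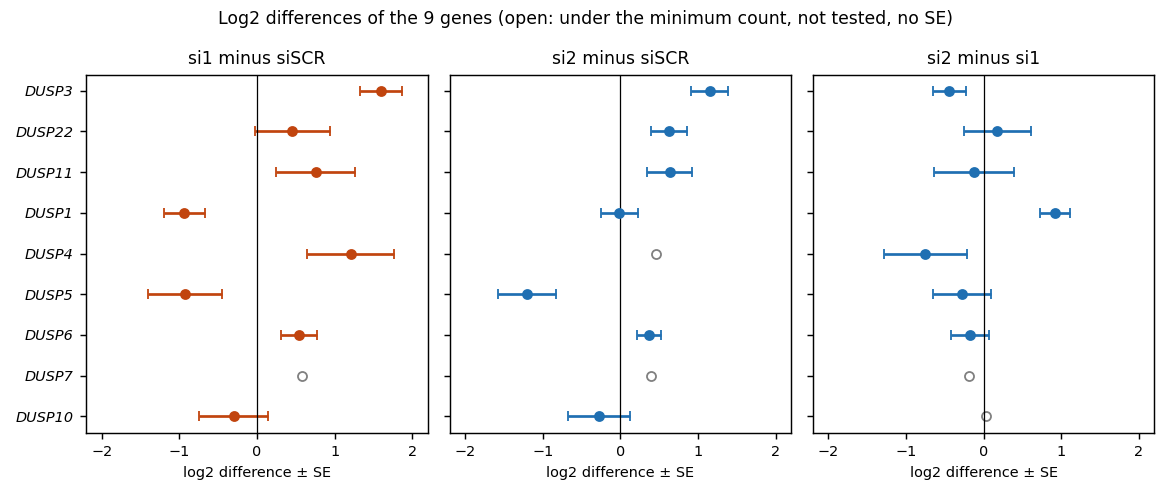
Log2 differences of the 9 genes, on a log2 axis, for si1 minus siSCR, si2 minus siSCR and si2 minus si1, with bars of ± 1 SE from limma; grey open points are genes under the minimum count in that comparison. DUSP3 lies at 1.60 and 1.15 in the comparisons with siSCR, and DUSP1 at 0.92 in si2 minus si1.

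Levels between genes were compared per kilobase of exons. In si1, DUSP3 had 146 ± 22.7 normalized counts per kilobase (SD, n = 3), followed by DUSP22 with 24.6 ± 13.6, DUSP6 with 19.3 ± 6.33 and DUSP1 with 18.6 ± 1.24. In si2, DUSP3 had 108 ± 19.4 (SD, n = 4), followed by DUSP1 with 36.1 ± 6.84, DUSP22 with 24.1 ± 3.11 and DUSP6 with 16.6 ± 2.16. In siSCR, DUSP3 had 49.6 ± 16.6 (SD, n = 4) and DUSP1 37.3 ± 12.3, which overlap, followed by DUSP22 with 16.1 ± 5.75, DUSP6 with 12.8 ± 1.09 and DUSP5 with 12.6 ± 5.09. DUSP11, DUSP10, DUSP7 and DUSP4 had 0.906 to 3.85 per kilobase in siSCR. DUSP3 was thus the most abundant of the 9 transcripts in all 3 groups, by a margin within the spread in siSCR and beyond it in si1 and si2.

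Other members of the wider family were read from lists that hold no gene described above. Of 16 other DUSP genes and the inactive relatives STYX and STYXL1, 8 were tested in each comparison and limma called 0 in any. At an unadjusted p under 0.05 there were 2 for si1, 3 for si2 and 3 for si2 against si1. Over all genes tested these counts were 2516 of 10517, 2008 of 10249 and 2654 of 10448. Voom called DUSP16 for si1 and STYXL1 for si2. The list's median was 0.18 for si1 and -0.14 for si2. At an adjusted p above 0.05, DUSP16, a phosphatase of JNK and p38, had 192 normalized counts on average in si1 and 144 in si2, against 89.4 in siSCR. Its differences were 1.12 for si1 (limma adjusted p = 0.0603) and 0.72 for si2 (limma adjusted p = 0.0787), and without siSCR 1 it was called in both. DUSP23, another atypical member, had a mean of 204 in si1 and 184 in si2, against 164 in siSCR (limma adjusted p = 0.294 and 0.642). STYXL1 had a mean of 148 in si1 and 140 in si2, against 213 in siSCR (limma adjusted p = 0.175 and 0.0776), and without siSCR 1 it was called lower for si2 (limma adjusted p = 0.0257). For si2 against si1, 7 of the 8 tested had negative differences, while 52.7% of all genes tested had positive ones. As 0 were called, nothing is read from these signs.

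Of 12 genes of other dual-specificity classes, 10 were tested in each comparison. Over all genes tested, 1.72% were called for si1, 3.12% for si2 and 6.74% for si2 against si1. SSH2, a slingshot phosphatase that activates cofilin, was called in all 3 comparisons and no other gene of the list was. It had 115, 126 and 111 normalized counts in si1 and 61.9, 70.6, 72.5 and 66.9 in si2, against 47.0, 40.6, 32.7 and 36.7 in siSCR. The groups did not overlap and kept the order si1, si2 and siSCR. Over all genes tested, all si1 libraries lay above all controls for 10.8%, and all si2 libraries for 7.09%. The share with 3 separate groups was not counted. SSH2 rose by 1.57 with si1 (SE 0.19; limma adjusted p = 0.0318) and by 0.79 with si2 (SE 0.16; limma adjusted p = 0.03), and was 0.78 lower in si2 than in si1 (si2 minus si1 -0.78, SE 0.16; limma adjusted p = 0.0303). Against siSCR both calls held without siSCR 1 and were lost without any other library (largest adjusted p 0.124 and 0.101). For si2 against si1 the call held without si1 2 or si2 3 and was lost without any other library (largest adjusted p 0.100).

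The substrates and regulators of these phosphatases were read in the same way. Of 13 MAP kinases 9 were tested in each comparison and limma called 0, with 2 at an unadjusted p under 0.05 in each. Over all genes tested, 2516 of 10517 for si1, 2008 of 10249 for si2 and 2654 of 10448 for si2 against si1 stood under that p. Voom called 1 for si1 (MAPK10), 1 for si2 (MAPK6) and 0 for si2 against si1. MAPK6, an atypical MAP kinase, had a mean of 245 normalized counts in si1 and 350 in si2, against 234 in siSCR (limma adjusted p = 0.868 and 0.0787). Of 17 upstream kinases, limma called 0 against siSCR with either siRNA, with 3 for si1 and 2 for si2 at an unadjusted p under 0.05. Voom called MAP3K5 lower for si1 and MAP3K2 higher for si2. MAP2K2, a kinase of ERK, had a mean of 481 in si1 and 386 in si2, against 505 in siSCR (limma adjusted p = 0.881 and 0.336). MAP2K7, a kinase of JNK, had a mean of 407 in si1, against 369 in siSCR (limma adjusted p = 0.651). MAP3K2, a kinase upstream of JNK and ERK5, had a mean of 654 in si2, against 371 in siSCR (limma adjusted p = 0.0578), and without siSCR 1 it was called higher (limma adjusted p = 0.0198).

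For si2 against si1, 1 upstream kinase was called higher, where 6.74% of all genes were called in either direction. MAP3K5, also known as ASK1, a stress kinase upstream of JNK and p38, had 373, 414, 284 and 300 normalized counts in si2, against 135, 130 and 107 in si1, with 180 to 260 in siSCR. The groups did not overlap, and siSCR lay between them. All si2 libraries lay above all si1 libraries for 13.4% of genes tested. Against the controls, si1 lay wholly lower for 10.9% and si2 wholly higher for 7.09%. MAP3K5 was higher in si2 by 1.45 (SE 0.20; limma adjusted p = 0.0101), also without any 1 library (adjusted p 0.0145 to 0.0405). Voom also called it, and 1 of 16 alternative runs lost the call (limma adjusted p = 0.102).

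Of 13 tested effectors of MAP kinases, limma called 0 for si1, 1 for si2 and 1 for si2 against si1. Over all genes tested these shares were 1.72%, 3.12% and 6.74%. MAPKAPK2, the kinase that p38 activates, had 1960, 1184 and 1892 normalized counts in si1. It had 1537, 1423, 1643 and 1666 in si2, against 970, 887, 861 and 1000 in siSCR. All siRNA libraries lay above the controls, as for 10.8% of genes tested with si1 and 7.09% with si2. It rose by 0.75 with si2 (SE 0.14; limma adjusted p = 0.0246), and its difference for si1 was 0.82 (SE 0.22; limma adjusted p = 0.0918). Voom called it for si1 as well (adjusted p = 0.0292), as did limma with all 11 libraries in 1 fit (adjusted p = 0.0251). Limma without both siSCR 1 and si1 2 also called it (adjusted p = 0.0174), a fit chosen after the values were seen. Without siSCR 1 alone its limma adjusted p for si1 was 0.0655, and without si1 2 alone 0.0675. Of 17 alternative runs for si1, 12 did not call it. The fit of all 11 libraries did not call MAPKAPK2 for si2 (limma adjusted p = 0.0504). The si2 call held without siSCR 1 and was lost without any other library (adjusted p up to 0.0868). RPS6KA5, a kinase downstream of ERK and p38, was higher in si2 than in si1 at 30.1 ± 4.24 (SD, n = 4), against 13.8 ± 4.78 (SD, n = 3), by 1.12 (SE 0.26; limma adjusted p = 0.0444). That call held without si1 2 (adjusted p = 0.048) and was lost without any other library (up to 0.116). Neither voom nor limma with all 11 libraries in 1 fit (adjusted p = 0.0754) called RPS6KA5. MKNK2, an ERK and p38 effector that acts on translation, had a mean of 713 in si1, against 657 in siSCR (limma adjusted p = 0.685).

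Of 21 ERK response and feedback genes, 17 were tested for si1 and 16 for si2. With si1 limma and voom called 0 (median -0.22), and with si2 0 rose and 2 fell (median -0.31). Over all genes tested limma called 1.72% for si1 and 3.12% for si2, and the medians were -0.03 and -0.01. At an unadjusted p under 0.05 there were 2 for si1 and 6 for si2. Over all genes tested these counts were 2516 of 10517 and 2008 of 10249. EGR1, an immediate early transcription factor, had 15.0, 14.4, 6.30 and 14.5 normalized counts in si2, against 22.7 in siSCR 1 and 67.3, 81.1 and 71.3 in the other controls. It fell by 2.10 with si2 (SE 0.41; limma adjusted p = 0.0263). In si1 EGR1 ranged from 10.5 to 135. ETV1, an ETS factor, had 18.6, 31.3, 12.6 and 18.1 in si2, against 36.9, 50.2, 48.4 and 48.9 in siSCR, and fell by 1.22 (SE 0.25; limma adjusted p = 0.0317). The EGR1 call held without siSCR 1 and the ETV1 call without siSCR 1 or si2 2. Each was lost without any other library (adjusted p up to 0.0853 for EGR1 and 0.100 for ETV1). With all 11 libraries in 1 fit EGR1 was not called for si2 (limma adjusted p = 0.145) and ETV1 was (limma adjusted p = 0.0235). The most abundant genes of the list, CCND1 and IER3, were not called by the main limma fit in any comparison. For si2 against si1 voom called both, as did limma-trend (adjusted p = 0.0183 for CCND1 and 0.0266 for IER3). Without siSCR 1, CCND1 was called higher for si1 (0.64; limma adjusted p = 0.0469). Without si1 2 the difference of IER3 for si1 was -0.56, against -0.98 with it, and neither was called. CCND1, a cyclin of G1, had a mean of 1733 in si1 and 1156 in si2, against 1270 in siSCR, and IER3 had 976 in si1 and 1960 in si2, against 1875 in siSCR (for si1, limma adjusted p = 0.232 for CCND1 and 0.245 for IER3).

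**Figure D3:**
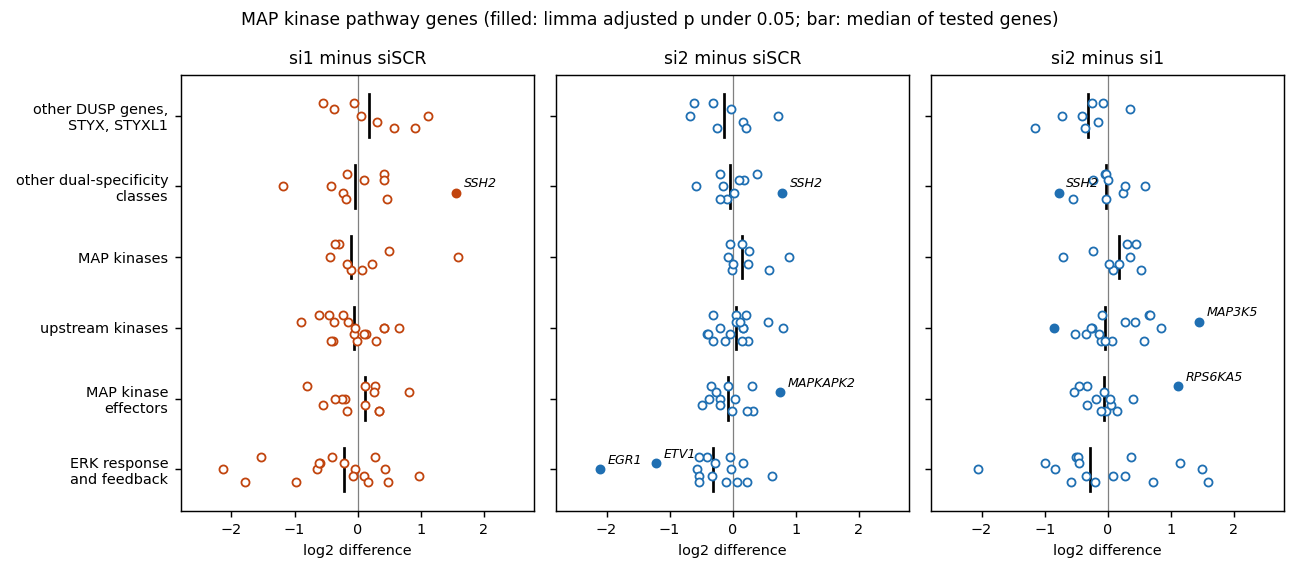
Log2 differences of the tested genes of 6 lists around the MAP kinase pathway, on a log2 axis, for si1 minus siSCR, si2 minus siSCR and si2 minus si1; filled points have a limma adjusted p under 0.05 over all genes, those described are named, and black bars are list medians. SSH2 is called in all 3 panels, at 1.57, 0.79 and -0.78, while EGR1 and ETV1 are called lower in si2 minus siSCR.

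The transcripts whose pattern was most like DUSP3 were sought among 10304 named genes with at least 10 normalized counts in 3 libraries, by Pearson's r of log2 values over the 11 libraries. The highest were GINM1 (r = 0.98), PAWR (r = 0.98), a proapoptotic regulator, ARL6IP5 (r = 0.97), SPATS2L (r = 0.97) and MAP3K13 (r = 0.96), a kinase that activates JNK signalling. PAWR had a mean of 831 ± 36.9 in si1 (SD, n = 3) and 609 ± 99.6 in si2 (SD, n = 4), against 317 ± 49.3 in siSCR (SD, n = 4). MAP3K13 had 406 ± 38.3 in si1 and 329 ± 27.6 in si2, against 169 ± 50.5 in siSCR. All these genes shared with DUSP3 the higher value of siSCR 1 among the controls and the low position of si2 3 within si2. Without siSCR 1, 4 of the 5 remained among the 5 most alike, and with Spearman's rho 3 did.

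The most opposite genes were NT5E (r = -0.98), the ectoenzyme that makes adenosine, NUDC (r = -0.95) and MCM7 (r = -0.94), a subunit of the replicative helicase. NT5E had a mean of 133 ± 22.3 in si1 (SD, n = 3) and 154 ± 16.4 in si2 (SD, n = 4), against 253 ± 31.5 in siSCR (SD, n = 4). The 11 libraries fall into 3 groups, so these correlations share the differences between the groups and carry no test. Within the list, r with DUSP3 ran from -0.50 for DUSP5 and -0.43 for DUSP1 to 0.59 for DUSP6 and 0.67 for DUSP4.

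**Figure D4:**
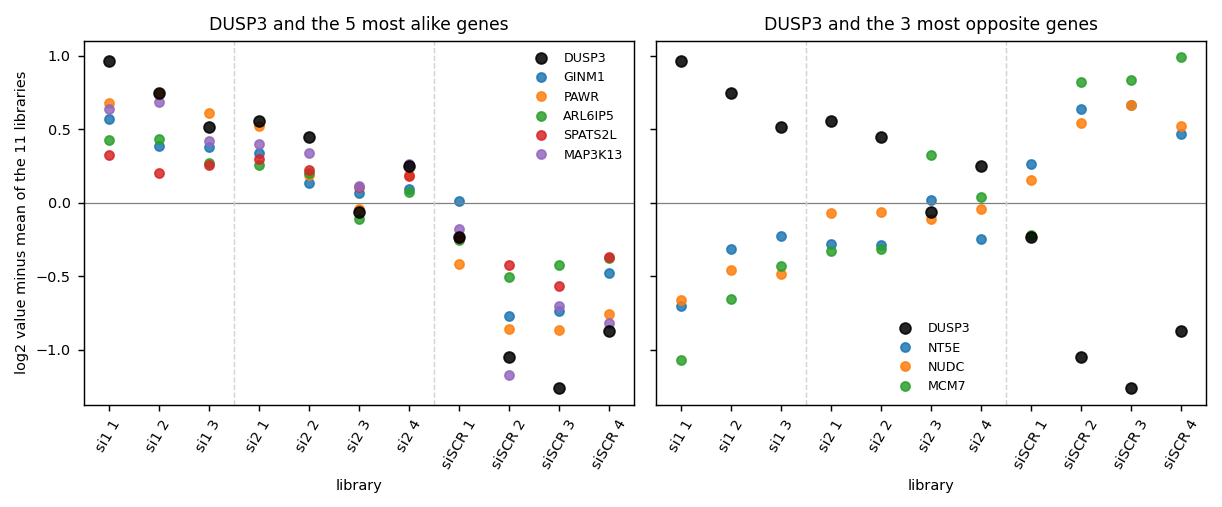
Log2 values of DUSP3 (black) with the 5 most alike genes (left) and the 3 most opposite genes (right) in each library, each centred on its mean over the 11 libraries; dashed lines separate si1, si2 and siSCR. The alike genes lie high in si1, lower in si2 and lowest in siSCR, with r of 0.96 to 0.98, and the opposite genes run the other way, with r of -0.98 to -0.94.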

How the data were processed

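The submitters' processing notes name cutadapt, FastQC, STAR, HTSeq, DESeq2 and the build GRCh38, without roles. Tool versions, strandedness and the sequences of the siRNAs are not given in the sources used here. Each siRNA has its own table, in which the authors deposited log2 values of normalized counts, with 1 added, for each library. Undone, 100% of values lay within 0.01 read of a whole number of reads, and the control columns of both tables were equal. A mean signal, a log2 fold change and p-values stand beside them, per the file headers. Only their fold change of DUSP3 is quoted.

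As log2 values were deposited, those of the whole table were fitted with limma 3.58.1 (R 4.3.3), checked on simulated data, with group as the only term. A gene was kept if the number of libraries with 10 or more normalized counts was at least the size of the smaller group. Calls were two-sided, at a Benjamini-Hochberg adjusted p under 0.05. Positions and exon lengths came from GENCODE 29 on GRCh38 (33001 identifiers matched), promoters from RefSeq. Members and lists were chosen with earlier results of these data known. Named were all members, up to 4 called genes per list and comparison (with none called, the 2 most abundant), and the 5 genes most like and 3 most unlike DUSP3. DUSP16 against siSCR and genes called by voom alone were named after their values were seen; results of some listed genes are not reported here. Voom on recovered reads was itself added after seeing the data. Deviations of same-numbered libraries correlated at -0.03 to 0.40, not above 0.1 in every pair, so replicate numbers were not taken as pairs.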

Additional observations from a re-analysis of the deposited data

Results flagged for a closer look

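DUSP1 was called between the siRNAs: the log2 difference of si2 minus si1 was 0.92 (limma adjusted p = 0.0322), with 704 of 10448 genes called in that comparison. All 4 si2 libraries lay above all si1 libraries, as for 13.4% of genes tested. The call was lost in 9 of 16 alternative runs, among them without any 1 library (limma adjusted p 0.0503 to 0.103). In 20 groups of 4 libraries, 3 held a library far from the others, where chance gives about 1 in 20. DUSP5 stood at 13.1 normalized counts in siSCR 3, against 36.9 to 41.8 in the other controls. DUSP22 stood at 140 in siSCR 1, against 72.6 to 79.4 in the other controls. The share of mitochondrial reads was 12.1% in siSCR 1, against 3.46% to 4.46% in the other controls. The part of that library in these results was measured only by leaving it out.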

How the results depend on the processing

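The differences of DUSP3 from siSCR moved by less than 1 SD under every alternative run. Over all named genes and comparisons, 676 alternative values counted as unchanged, 73 lost a call, 32 gained one and 19 changed sign, all of differences that were not called. Unchanged meant the same direction and side of the threshold. For DUSP3 against siSCR, with 17 values for each siRNA, it meant the same direction and a move under 1 SD, with no threshold. The cause of these moves was not tested. For si1 against siSCR, genes called numbered 5 with no filter on low values, 567 at a minimum of 50, 712 with limma-trend, 414 with pseudocount 5, 1141 with all 11 libraries in 1 fit, 582 with voom and 1747 without both siSCR 1 and si1 2. Members called other than DUSP3 numbered 1 with all 11 libraries (DUSP1) and 2 without both (DUSP4 and DUSP22). DUSP4 passed the minimum there through si1 libraries alone, so its call is not read as a result. For si2 against siSCR genes called numbered 108 with no filter and 482 by limma-trend. For si2 against si1 genes called numbered 230 without the filter, 1064 by limma-trend and 1172 by voom, and 0 members were called without the filter. Leaving out 1 library gave 0 to 1399 genes and 0 members for si1, 88 to 1496 genes and 0 to 1 members for si2, and 120 to 803 genes and 0 members for si2 against si1. Of these, the highest gene counts against siSCR were those without siSCR 1.

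Replicate numbers were not taken as pairs, but they were not without a pattern. Libraries numbered 1, 3 and 4 correlated best with their own number in each comparison that held them, and those numbered 2 in none. The highest correlation was 0.40, for replicate 1 of si1 and siSCR. Whether a number marks a shared batch is not given in the labels and was not tested. With the replicate number as a block, 0 genes and 0 members were called for si1, 175 genes for si2, and 6 genes and 0 members for si2 against si1, where DUSP1 had 0.90 (limma adjusted p = 0.174). The block gave 0.023 for MAP2K2 in si1 minus siSCR and 0.015 for DUSP11 in si2 minus si1.

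The log2 differences that changed sign follow. Upper-quartile scaling gave 0.012 for DUSP1 in si2 minus siSCR. Without both siSCR 1 and si1 2, si1 minus siSCR was -0.053 for DUSP11, -0.13 for MAPK6 and 0.044 for MAP2K2. Leaving out 1 library, si1 minus siSCR ranged from -0.052 to 0.16 for MAPK6 and from -0.15 to 0.023 for MAP2K2. For si2 minus siSCR the range was -0.17 to 0.19 for DUSP1. For si2 minus si1 it was -0.65 to 0.033 for DUSP5, -0.32 to 0.077 for DUSP6, -0.44 to 0.50 for DUSP22 and -0.55 to 0.53 for DUSP11. The planned edgeR and DESeq2 fits were not run, and voom on the recovered reads stands in their place. Depth limits DUSP4, DUSP7 and DUSP10, with as few as 1 to 3 reads in a library.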
